A study of Mus musculus with 6 samples.

Results

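Histones are the proteins around which DNA is wound, and the probe sets of an expression array that list a histone gene were followed here in mouse testes with and without Alkbh1. Of 45037 probe sets on the array, 60 listed at least 1 histone gene of the H1, H2A, H2B, H3 or H4 families or a histone variant, by a gene name that begins with Hist1h to Hist4h, H2af, H3f, H1f or H2bf. The spermatid linker histones Hist1h1t and H1fnt were left out. The platform annotation uses the newer histone symbols, and only 9 of the 60 matched by their current symbol, while 51 were found through the older name of the same gene ID. The choice used names and no measured value. The 60 list 69 histone genes, and 33 of them listed 1 gene (23 genes in all) and 27 listed several, because the members of a histone family have nearly the same sequence. Probe sets that listed several are given by their identifier, and their signal is not assigned to a single gene. Whether a probe set that lists 1 gene also reads other genes of its family was not tested.

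The arrays came from whole testes of mice aged 12 weeks, 3 wild-type (WT) and 3 Alkbh1-/- knockout (KO), 1 array per mouse. The source labels give a C57/BL6 background for both groups, while the genotype field spells the strain C53/BL6. The values are normalized log2 expression values per probe set as the authors deposited them, so a difference of 1 is a change by a factor of 2. Fluorescence differs between probes, so levels of different probe sets served only to choose which genes and probe sets to name or test and were not compared as amounts of RNA. The number of arrays limits the precision. In whole tissue, fewer cells of a type and less RNA per cell cannot be told apart.

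Alkbh1, an AlkB family dioxygenase that has been reported to act on methylated histone H2A among other substrates, checked the labels. Its probe set 1434660_at read 8.43, 8.65 and 8.72 in WT and 5.76, 5.30 and 5.20 in KO, which is 9.08-fold lower (−3.18 ± 0.15 SE, limma adjusted p = 0.000582). The KO mean of 5.42 lies under the lowest mean that was tested, 6.02, where signal is weak. Its second probe set, 1438681_at, read 6.97, 6.82 and 7.16 in WT and 6.03, 5.78 and 6.10 in KO, without overlap, and its difference of −1.02 ± 0.12 (2.02-fold) did not pass (limma adjusted p = 0.0697). The labels do not give the deleted part of the gene. Markers fixed for germ cells were all measured above the level needed for a test, with 8 of 8 for spermatogonia, 9 of 9 for spermatocytes, 8 of 8 for round spermatids and 7 of 7 for elongating spermatids. The mean marker level of spermatocytes ran from 10.98 to 11.22 in WT and from 11.06 to 11.19 in KO. For elongating spermatids the ranges were 14.57 to 14.63 and 14.61 to 14.64. Sertoli cell markers (10 of 10 measured) ran from 9.66 to 9.70 in WT and from 9.56 to 9.64 in KO, a difference of −0.08. Markers of Leydig cells (4 of 6 on the array, all 4 above the level), peritubular cells (5 of 5) and macrophages (5 of 5) overlapped between the groups. Of the erythroid markers 1 of 3 and of the epididymis markers 0 of 4 reached the level for a test, and the epididymis list rested on Lcn5 alone. No marker of these lists passed the test. WT replicates 1 and 2 stood farthest apart among the 6 arrays (r = 0.989 across probe sets, against 0.992 to 0.996 for all other pairs). The poly-A spike-in controls averaged 6.04 on WT replicate 1 and 8.10 on WT replicate 2, against 6.69 to 7.06 on the others, and the hybridization controls averaged 10.00 on WT replicate 1 against 10.40 to 10.51. WT replicate 1 was the lowest array for 32.7% of all tested probe sets and for 14 of the 46 tested histone probe sets (30.4%). KO replicate 1 was the lowest for 11.2% of all tested probe sets and for 12 of the 46 (26.1%). The part of these differences in the values that follow was not tested, and values without these arrays are given for several of the results they move.

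The core histones H2A, H2B, H3 and H4 form the nucleosome, and H1 binds the DNA between nucleosomes. Canonical histone genes lie in clusters, are transcribed mainly while DNA is copied, and give messages that end in a stem-loop and lack a poly(A) tail. Variants such as H2A.Z, macroH2A and H3.3 are made throughout the cell cycle from polyadenylated messages. In the testis many histones are exchanged and later replaced by protamines as sperm form. Labelling by the 1-cycle kit primes from poly(A) tails, so a canonical histone message is labelled well only where it carries one. How much of each signal comes from tailed forms was not tested.

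Several short elements are known from canonical histone promoters, and the following promoters show examples of them in H1, H2A, H2B and H4 genes and in an H3.3 gene. Sequences are the 250 bases before the annotated start in RefSeq, build GRCm38.p6, written 5′ to 3′ on the gene's strand. Of the 23 genes with a probe set of their own, 19 had a promoter entry. Capitals mark AAACACA, an element of H1 promoters, in H1f2 (Hist1h1c, chr13:23738557-23738806, plus strand), which has 1 match. They mark the octamer ATTTGCAT on either strand in H2aw (Hist3h2a, chr11:58954435-58954684, plus), in H2bc18 (Hist2h2bb, chr3:96269450-96269699, plus) and in the replacement histone gene H3f3b (chr11:116024505-116024754, minus). In H2bc22 (Hist1h2bp, chr13:21787238-21787487, plus) they mark the 4 matches to CCAAT on either strand. They mark GGTCC in 2 of the H4 genes, H4c3 (Hist1h4c, chr13:23698459-23698708, minus) and H4f16 (Hist4h4, chr6:136804432-136804681, minus).
H1f2: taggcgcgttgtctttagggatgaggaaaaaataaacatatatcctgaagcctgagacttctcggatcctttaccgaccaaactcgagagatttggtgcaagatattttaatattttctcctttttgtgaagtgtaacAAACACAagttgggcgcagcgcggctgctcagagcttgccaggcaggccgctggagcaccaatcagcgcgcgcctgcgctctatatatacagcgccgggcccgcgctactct
H2aw: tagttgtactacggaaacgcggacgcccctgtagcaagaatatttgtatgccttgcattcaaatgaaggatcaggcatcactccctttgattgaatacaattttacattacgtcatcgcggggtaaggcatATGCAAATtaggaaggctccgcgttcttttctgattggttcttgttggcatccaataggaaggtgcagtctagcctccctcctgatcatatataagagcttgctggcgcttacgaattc
H2bc18: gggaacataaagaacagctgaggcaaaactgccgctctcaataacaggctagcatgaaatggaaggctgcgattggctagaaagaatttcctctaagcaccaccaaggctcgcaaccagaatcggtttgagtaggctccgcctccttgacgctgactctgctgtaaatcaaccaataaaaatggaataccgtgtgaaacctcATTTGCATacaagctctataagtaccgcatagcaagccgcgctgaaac
H3f3b: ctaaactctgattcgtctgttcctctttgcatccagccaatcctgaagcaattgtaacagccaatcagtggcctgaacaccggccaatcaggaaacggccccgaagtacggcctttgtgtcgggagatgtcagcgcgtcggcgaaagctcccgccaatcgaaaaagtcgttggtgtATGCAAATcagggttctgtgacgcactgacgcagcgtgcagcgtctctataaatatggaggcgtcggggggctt
H2bc22: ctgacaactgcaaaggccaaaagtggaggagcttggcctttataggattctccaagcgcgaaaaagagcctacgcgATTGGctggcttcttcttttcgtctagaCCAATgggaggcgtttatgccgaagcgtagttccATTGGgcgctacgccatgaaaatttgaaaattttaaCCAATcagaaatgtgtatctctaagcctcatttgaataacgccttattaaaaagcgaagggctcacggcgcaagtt
H4c3: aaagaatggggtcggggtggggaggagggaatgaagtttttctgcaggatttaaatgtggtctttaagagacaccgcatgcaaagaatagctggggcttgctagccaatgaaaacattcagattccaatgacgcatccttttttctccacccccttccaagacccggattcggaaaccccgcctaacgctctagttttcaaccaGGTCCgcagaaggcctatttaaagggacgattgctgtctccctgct
H4f16: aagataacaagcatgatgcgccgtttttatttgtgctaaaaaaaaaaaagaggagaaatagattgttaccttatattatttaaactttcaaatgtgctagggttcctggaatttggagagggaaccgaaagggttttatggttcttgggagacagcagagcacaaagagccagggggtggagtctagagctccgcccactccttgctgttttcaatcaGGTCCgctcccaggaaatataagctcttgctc
The marked matches overlapped no other motif of this search, which covered those 4 elements and the TATA box (TATAAA) on both strands. CCAAT stood in 5 of 5 H1, 18 of 18 canonical H2A, 17 of 17 H2B, 8 of 10 H3 and 3 of 12 H4 promoters, against 33.8% of all 32851 promoters of the same length. The octamer stood in 7 of 18 H2A and 7 of 17 H2B promoters and in 0 of 5 H1, 0 of 10 H3 and 0 of 12 H4 promoters (1.6% of all promoters). GGTCC stood in 11 of 12 H4 promoters (39.8% of all) and in 4 of 10 H3 promoters. AAACACA stood in 4 of 5 H1 and 0 of 10 H3 promoters (6.2% of all). Among 16 variant promoters the octamer was found in 1, that of H3f3b, and CCAAT in 10. A match describes letters in this window and does not show that a factor binds there.

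No histone probe set was called higher or lower in KO. Of the 60, 46 had a mean level high enough for a test, and 0 of these had a limma Benjamini-Hochberg adjusted p under 0.05, against 0.0407% of all 27022 probe sets tested (0.0333% higher and 0.0074% lower). The smallest adjusted p among them was 0.863. At an unadjusted p under 0.05 there were 5 of 46 (background 5.11%), of which 2 were higher in KO (background 3.32%) and 3 lower (background 1.78%). KO and WT values did not overlap for 6 probe sets, 5 higher and 1 lower, while 11% of all tested probe sets had no overlap (7.12% higher and 3.84% lower). The 46 differences had a median of −0.0011 log2, with 23 above and 23 below 0. Over all probe sets tested the median was 0.013, and 56.4% lay above 0. The median size was 0.072 for histones and 0.06 for all probe sets.

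The arrays set limits to the changes in probe-set signal that could have been missed. They do not bound changes in all of the canonical histone message, since the share of signal from tailed forms was not tested. For 42 of the 46 probe sets the 95% interval of the difference lay within 0.5 log2 of 0, that is within a factor of 1.41, and for 20 it lay within 0.25 (a factor of 1.19). Over all probe sets 93.2% and 46.1% did so. The 1 histone probe set whose interval reached past a factor of 2 was an H4 probe set, 1422947_at.

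**Figure D1:**
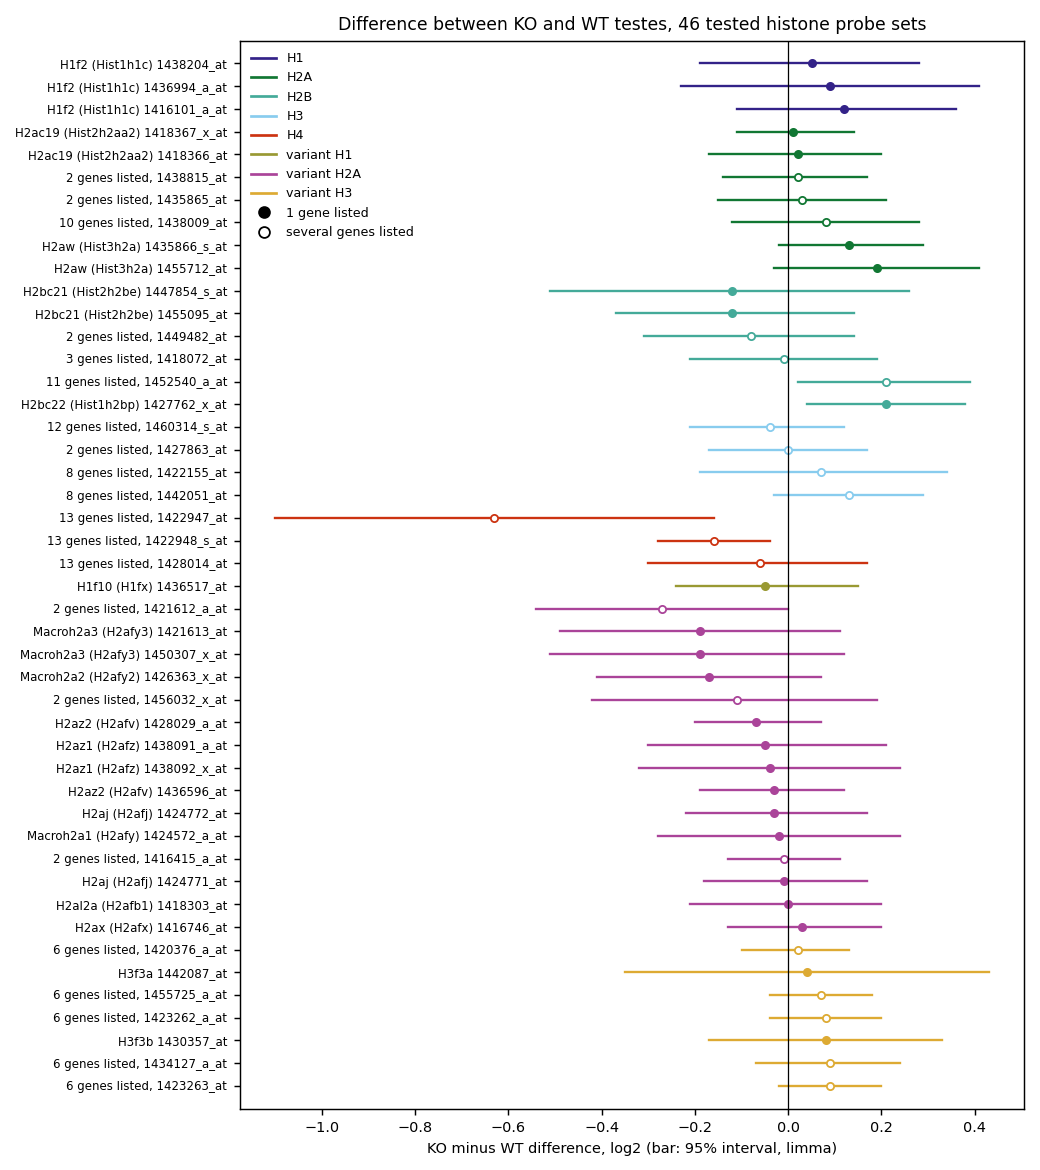
Difference between 3 KO and 3 WT testes for the 46 tested histone probe sets, in log2 on the horizontal axis. Points are KO minus WT, bars are 95% intervals from limma, filled points are probe sets that list 1 gene and open points those that list several. Most bars cross 0, and H4 probe set 1422947_at at −0.63 has the widest.

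The linker histone H1 was represented by H1f2 (Hist1h1c, chromosome 13), which encodes H1.2. Its brightest probe set, 1416101_a_at, read 9.26, 8.88 and 9.19 in WT and 9.19, 9.21 and 9.31 in KO. WT replicate 2 was the lowest and the groups overlapped. The difference was 0.12 ± 0.10 (limma adjusted p = 0.993). The other 2 probe sets of H1f2 stood at 0.09 and 0.05, so that all 3 lay slightly above 0 without passing. Without WT replicate 2 the first stood at 0.01, and 2 of 3 lay above 0 without WT replicate 3, KO replicate 1 or KO replicate 3. H1f4 (Hist1h1e), which encodes H1.4, had a probe set between 3.23 and 3.51 on all arrays and was too low to test.

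Canonical H2A, the family on which Alkbh1 was reported to act, had no probe set at an unadjusted p under 0.05. H2ac19 (Hist2h2aa2, chromosome 3), a canonical H2A gene, read 13.28, 13.22 and 13.33 in WT and 13.35, 13.31 and 13.21 in KO at 1418367_x_at. The annotation lists H2ac19 alone there, and whether this probe set also reads other H2A genes was not tested. The groups covered the same range, and the difference was 0.01 with a 95% interval from −0.11 to 0.14. Its other probe set, 1418366_at, stood at 0.02. A probe set that lists 10 H2A genes, 1438009_at, read 11.44, 11.55 and 11.63 in WT against 11.78, 11.49 and 11.58 in KO. KO replicate 1 was the highest of the 6 and the other 2 KO values lay within the WT range.

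The H2A gene H2aw (Hist3h2a, chromosome 11) showed the largest H2A difference. Probe set 1435866_s_at read 8.66, 8.71 and 8.81 in WT and 8.83, 8.86 and 8.91 in KO, without overlap (0.13 ± 0.07, limma adjusted p = 0.993, unadjusted p = 0.0747). Probe set 1455712_at read 7.38, 7.59 and 7.66 against 7.62, 7.82 and 7.78, where the groups overlapped (0.19 ± 0.10, unadjusted p = 0.0782). Neither passed. Another probe set, 1435865_at, lists H2aw together with Trim17 and stood at 0.03. All 7 H2A probe sets lay above 0 (56.4% of all tested probe sets did), with a median of 0.033. H2ac19 and H2aw are each listed by more than 1 of them, so they are not separate observations. That count was 5 of 7 with quantile normalization, 4 of 7 without WT replicate 2 or without WT replicates 1 and 2, and 2 of 7 without KO replicate 1, where the median was −0.003.

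Of the 6 tested H2B probe sets 2 lay above 0 and 4 below. H2bc22 (Hist1h2bp, chromosome 13), whose promoter with its CCAAT boxes is printed above, encodes a canonical H2B. At 1427762_x_at, for which the annotation lists H2bc22 alone, it read 10.95, 10.87 and 11.03 in WT and 11.29, 11.09 and 11.09 in KO. Whether this probe set also reads other H2B genes was not tested. All 3 KO values lay above the WT values, and the difference of 0.21 ± 0.07 (95% interval 0.04 to 0.38) did not pass (limma adjusted p = 0.912, unadjusted 0.0241). Probe set 1452540_a_at, which lists 11 H2B genes with H2bc22 among them, read 12.06, 11.83 and 11.99 against 12.30, 12.10 and 12.11. It differed by 0.21 ± 0.08 (adjusted p = 0.925). Both list H2bc22, so they are not separate observations. KO replicate 1 was the highest array in both, and without it each difference was 0.14.

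H2bc21 (Hist2h2be, chromosome 3), an H2B gene known to give polyadenylated as well as stem-loop messages, stood below WT on average. Its probe set 1455095_at read 8.86, 8.90 and 8.83 in WT and 8.71, 8.54 and 8.99 in KO. The KO values spread on both sides of the WT values (SD 0.23 against 0.03), and the difference was −0.12 ± 0.11. Its second probe set, 1447854_s_at, also stood at −0.12, with KO replicate 2 lowest at 9.43. Both rested on single KO arrays: without KO replicate 2 they stood at −0.02 (1455095_at) and 0.03 (1447854_s_at), and without KO replicate 3 at −0.24 and −0.29. Without WT replicate 1 or WT replicate 2, 1447854_s_at stood at −0.24 or −0.05. The probe set of 3 H2B genes, 1418072_at, differed by −0.01. Median differences were −0.12 for the 3 H2B probe sets of 1 gene and −0.012 for the 3 of several genes. The first was 0.032 without KO replicate 2, −0.239 without KO replicate 3, −0.049 without WT replicate 2, 0.005 with no level filter and 0.043 with 1 probe set per gene. The second ran from −0.053 to 0.059 when single arrays were left out.

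H3 was measured through probe sets that list many genes at once. Those of 12 genes (1460314_s_at), 8 genes (1442051_at and 1422155_at) and 2 genes (1427863_at) differed by −0.04, 0.13, 0.07 and 0.00. The largest of these, 1442051_at, read 7.80, 7.98 and 7.85 in WT and 8.0, 8.02 and 7.98 in KO. KO and WT values did not overlap there, by a margin that vanishes at this rounding, and the adjusted p was 0.993. H3c4, H3c7 and H3c11 had a probe set each, all with a mean too low to test, and differences between −0.13 and 0.14.

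The largest difference of any tested histone probe set belonged to H4. All 5 H4 probe sets list the same 13 genes, which include H4c3 and H4f16, the genes of the GGTCC promoters printed above. Probe set 1422947_at read 11.11, 11.67 and 11.50 in WT and 10.47, 11.20 and 10.72 in KO. WT replicate 1 lay below KO replicate 2, so the groups overlapped. The difference of −0.63 ± 0.20 is 1.55-fold and had a 95% interval from −1.10 to −0.16 (limma adjusted p = 0.863, unadjusted 0.0147). Its pooled SD of 0.33 exceeded that of 98.1% of all tested probe sets.

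The second H4 probe set, 1422948_s_at, had a small spread (SD 0.01 in WT and 0.04 in KO). It read 10.64, 10.64 and 10.65 in WT and 10.44, 10.52 and 10.50 in KO, without overlap. The difference was −0.16 ± 0.05, or 1.12-fold, and did not pass (adjusted p = 0.863, unadjusted 0.0160). The third, 1428014_at, stood at −0.06 ± 0.10 with overlapping groups. The 2 others, at means under the tested level, stood at −0.03 and 0.00. The 3 tested H4 probe sets were lower under quantile normalization, under median centring and without each single array, with a median from −0.18 to −0.13. Without WT replicates 1 and 2, 2 of 3 were lower. The 3 list the same 13 genes, so they are not separate observations. Over all tested probe sets 56.4% were higher in KO. Over the alternatives the difference of 1422947_at ran from −0.83 to −0.46. Its adjusted p was 0.136 with the replicate number as a block and 0.36 or more otherwise. Among the marker lists given above, that of Sertoli cells was the one whose WT and KO ranges did not overlap (−0.08), and the spermatogonia list ran from 7.91 to 8.06 in WT and from 7.87 to 7.95 in KO. Their part in the H4 values was not tested.

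**Figure D2:**
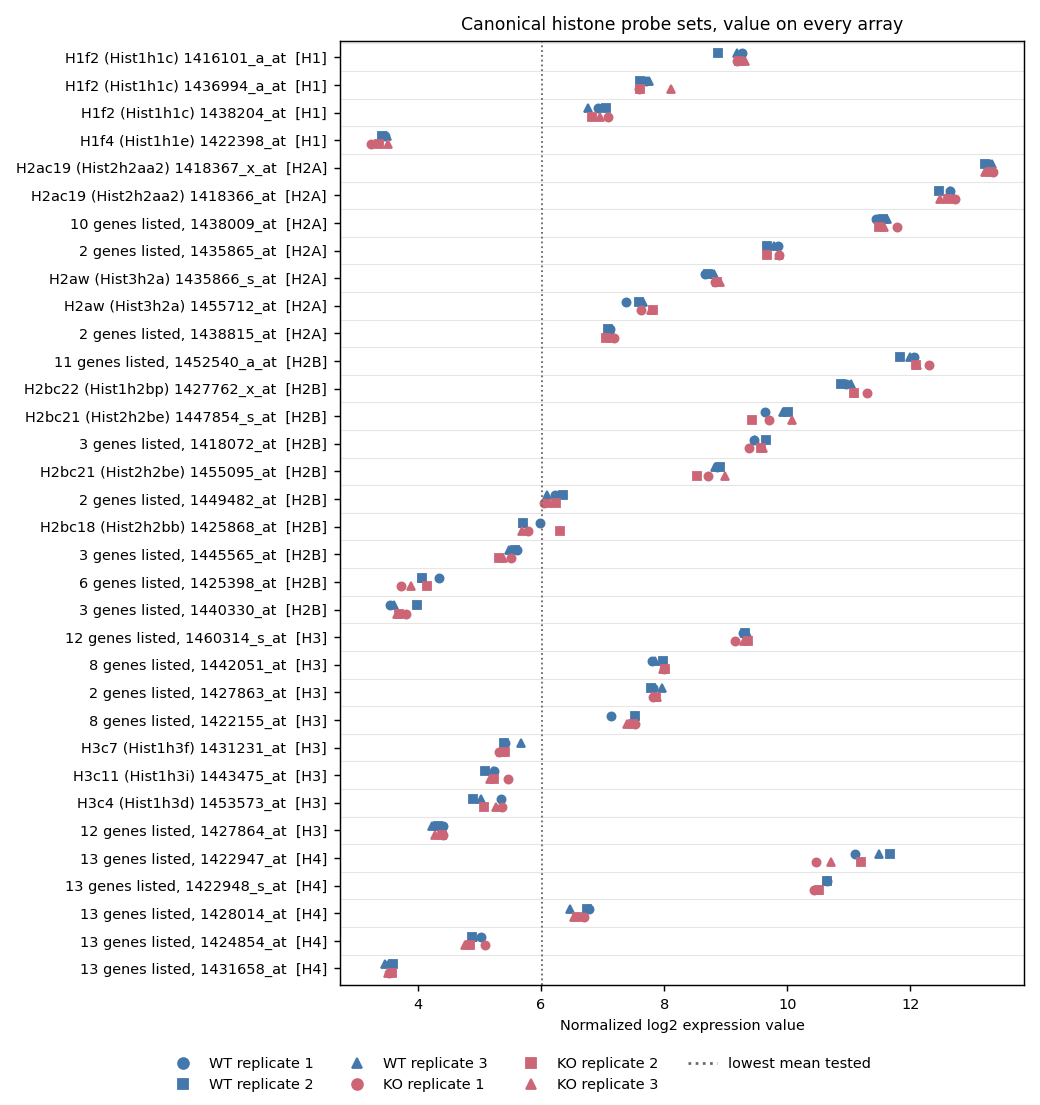
Normalized log2 value on each of the 6 arrays for the 34 canonical histone probe sets, 3 WT (blue) and 3 KO (red) with a marker shape per replicate. The dotted line is the lowest mean level that was tested (6.02), and for H4 probe set 1422948_s_at the KO points lie wholly to the left of the WT points, while for 1422947_at the groups overlap.

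H2A variants were represented by 15 tested probe sets, and 14 of them were lower in KO by small amounts, with a median of −0.04. Over all tested probe sets 56.4% were higher. Of the 15, 4 list H2az1 and 5 list macroH2A genes, so they are not separate observations. None passed. That median was −0.147 without WT replicate 1 and −0.011 without WT replicate 2. H2ax (H2afx, chromosome 9) encodes H2A.X, which is phosphorylated at DNA breaks and on the sex chromosomes of spermatocytes. It read 11.22, 11.15 and 11.15 in WT and 11.35, 11.13 and 11.14 in KO, a difference of 0.03 ± 0.07. KO replicate 1 alone stood above the WT range.

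H2A.Z, the variant at promoters, is encoded by H2az1 (H2afz, chromosome 3) and H2az2 (H2afv, chromosome 11). H2az1 read 11.91, 12.37 and 12.24 in WT and 12.11, 12.08 and 12.19 in KO at 1438091_a_at. WT replicates 1 and 2 were the lowest and the highest of the 6 arrays, and the difference was −0.05 ± 0.11. It was −0.18 without WT replicate 1 and 0.05 without WT replicate 2, and the second probe set of H2az1 alone, 1438092_x_at at −0.04, moved to −0.19 and 0.06. The 4 probe sets that list H2az1, of which 2 also list the predicted gene Gm8203, stood between −0.11 and −0.01. H2az2 read 10.46, 10.49 and 10.36 in WT against 10.39, 10.35 and 10.38 in KO at 1428029_a_at, a difference of −0.07 with a 95% interval from −0.20 to 0.07. Its second probe set stood at −0.03.

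MacroH2A carries a large extra domain and marks silent chromatin such as the inactive X chromosome. Macroh2a1 (H2afy, chromosome 13) read 10.19, 10.64 and 10.50 in WT and 10.33, 10.49 and 10.44 in KO, a difference of −0.02 ± 0.11. That difference was −0.15 without WT replicate 1 and 0.08 without WT replicate 2. Macroh2a2 (H2afy2, chromosome 10) read 7.30, 7.39 and 7.26 against 6.94, 7.23 and 7.28. KO replicate 1 was lowest by a wide margin, and KO replicate 3 lay within the WT range (−0.17 ± 0.10). The 2 probe sets of Macroh2a3 (H2afy3), which RefSeq lists as a transcribed pseudogene, both stood at −0.19.

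A probe set that lists Macroh2a2 and Macroh2a3 together, 1421612_a_at, had the largest difference among the variants. It read 8.74, 8.85 and 8.57 in WT and 8.22, 8.55 and 8.58 in KO (−0.27 ± 0.12, adjusted p = 0.974, unadjusted 0.0492). The groups overlapped. All 5 macroH2A probe sets lay below 0, with a median of −0.19, and 4 of 5 did so without WT replicate 2, WT replicate 3 or KO replicate 1. KO replicate 1 was the lowest array for 4 of the 5, but not for Macroh2a1. The median deviation of the 5 from their 6-array mean was −0.335 there, against −0.011 and 0.044 in the other KO arrays. Without it their median difference was −0.064, and that of 1421612_a_at was −0.15. Probe set 1421612_a_at lists the genes of 3 of the others, so these 4 are not separate observations.

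H2al2a (H2afb1, chromosome 2) encodes a short H2A variant of condensing spermatids. It read 12.64, 12.92 and 12.93 in WT and 12.75, 12.81 and 12.93 in KO, with a difference of 0.00 ± 0.09. H2aj (H2afj, chromosome 6), an H2A variant gene, read 9.63, 9.68 and 9.59 against 9.53, 9.58 and 9.77 at 1424771_at, a difference of −0.01 ± 0.08. A further H2aj probe set, 1440252_at, was too low to test, and its KO values of 4.85, 4.74 and 4.68 lay below the WT values of 5.05, 4.86 and 4.91. The count of 14 of 15 held under quantile normalization and median centring, but was 8 of 15 without WT replicate 2, 9 of 15 without WT replicate 3 and 12 of 15 without KO replicate 1, KO replicate 2 or WT replicates 1 and 2.

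H3.3, the replacement H3 that enters chromatin outside DNA synthesis, is made from H3f3a (chromosome 1) and H3f3b (chromosome 11). The 5 probe sets that list both, with related sequences, stood between 0.02 and 0.09 above WT. Among them 1423263_at read 13.08, 13.07 and 13.19 in WT and 13.20, 13.22 and 13.20 in KO, without overlap and by the narrowest of margins (0.09 ± 0.05, adjusted p = 0.993). The probe set of H3f3a alone, 1442087_at, read 6.94, 7.66 and 7.42 against 7.29, 7.36 and 7.49. WT replicate 1 was the lowest of all arrays, and the 95% interval ran from −0.35 to 0.43. Its difference of 0.04 was −0.16 without WT replicate 1 and 0.20 without WT replicate 2. That of H3f3b alone stood at 0.08 ± 0.11. All 7 H3.3 probe sets were higher in KO (56.4% of all tested probe sets were), with a median of 0.079. The 5 shared probe sets list 6 genes each, and the other 2 list H3f3a or H3f3b alone, so the 7 are not separate observations. The count was 6 of 7 with quantile normalization, 5 of 7 without WT replicate 1, where the median was 0.01, and 3 of 7 without WT replicates 1 and 2.

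Linker and H2B variants added little. H1f10 (H1fx, chromosome 6), a linker histone variant, read 11.16, 10.95 and 10.84 in WT and 10.91, 10.99 and 10.92 in KO (−0.05 ± 0.08). Without WT replicate 1 its difference was 0.04. The oocyte linker histone H1f8 (H1foo) ran from 4.98 to 5.46 and H2bfm, an X-linked H2B variant, from 4.01 to 4.46, both too low to test.

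**Figure D3:**
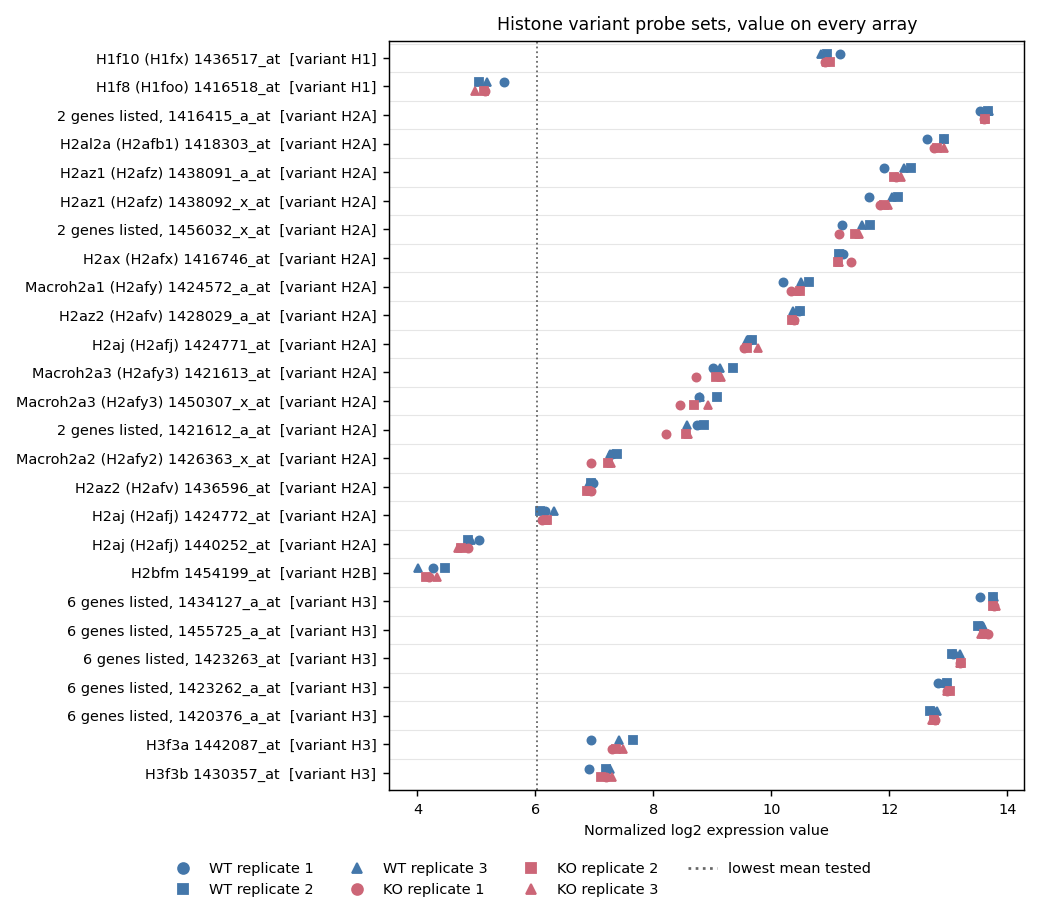
Normalized log2 value on each of the 6 arrays for the 26 histone variant probe sets, 3 WT (blue) and 3 KO (red) with a marker shape per replicate. KO and WT points lie side by side for H2ax, H2al2a and the 2 tested H2aj probe sets. For the untested H2aj probe set 1440252_at the KO points lie to the left of the WT points. KO replicate 1 sits to the left for the macroH2A probe sets 1421612_a_at and 1426363_x_at.

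In all, 14 of the 60 probe sets were below the tested level, with differences from −0.23 to 0.14. The members nearest to that level were H2bc18 at a mean of 5.86, which was not tested, and H2aj probe set 1424772_at at 6.17, which was. On WT replicate 2 the H2A variants stood 0.159 above their 6-array mean and canonical H2A 0.064 below it (−0.064). On WT replicate 1 the H3.3 probe sets stood at −0.121. For H4 the median of 3 probe sets lay above the mean on all 3 WT arrays (0.074, 0.116 and 0.09). On all 3 KO arrays it lay below (−0.128, −0.043 and −0.103). Only 1 of these probe sets, 1422948_s_at, had no overlap between groups, beside 3.84% of all tested probe sets lower without overlap. Over all tested probe sets the same deviations stayed between −0.026 and 0.012.

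**Figure D4:**
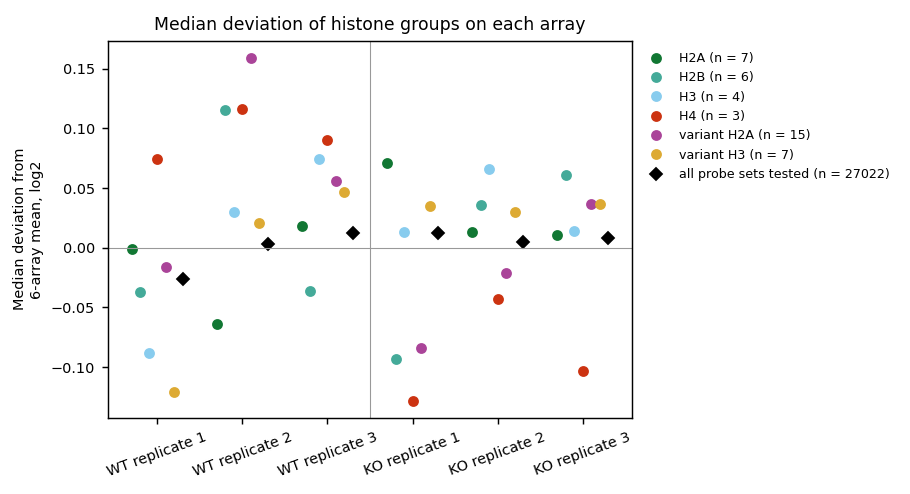
Median deviation of each histone group from its mean over the 6 arrays, in log2, for each array (points side by side; black diamonds are all 27022 tested probe sets). The H4 points, medians of 3 probe sets, are above 0 on the 3 WT arrays and below 0 on the 3 KO arrays. Only 1 of these probe sets, 1422948_s_at, had no overlap between groups. In the other 5 histone groups the WT and KO points overlap.

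Genes that make and handle histones were measured alongside. Of 18 genes for transcription and 3′ processing of histone messages, all tested, 0 were called by limma (background 0.0432% of genes). At an unadjusted p under 0.05 there were 2, both higher in KO, beside 3.56% of all genes higher and 1.95% lower. Their median difference was 0.022, beside 0.012 for the 13897 tested genes, each taken at its brightest probe set. Coil, the scaffold of Cajal bodies, read 12.71, 12.83 and 12.81 in WT and 12.98, 12.88 and 12.91 in KO, without overlap (0.14 ± 0.05, adjusted p = 0.922). Lsm11, a subunit of the U7 particle that cuts histone messages, read 6.84, 6.84 and 6.80 against 6.99, 6.97 and 6.95, again without overlap (0.15 ± 0.06, adjusted p = 0.974). For the U7 subunit Lsm10 the difference was also 0.15. These 3 of the 18 had no overlap between groups, beside 7.95% of all genes higher and 4.24% lower without overlap.

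Among histone chaperones and exchange factors, 25 of 30 listed genes were tested and 0 were called by limma. At an unadjusted p under 0.05 there were 2, both higher, beside the 3.56% and 1.95% of all genes. Their median was 0.044, with 18 higher and 7 lower (72% higher, beside 55.9% of all genes). Of the 25, 3 differed by more than 0.2 log2 (12%, beside 6.18% of all genes). The largest difference was that of Supt16, 0.44 ± 0.20, where the groups overlapped (limma adjusted p = 0.984). Nasp, which binds H1 and H3-H4 before they enter chromatin and is abundant in testis, read 13.32, 13.40 and 13.42 in WT and 13.51, 13.49 and 13.47 in KO (0.11 ± 0.05, adjusted p = 0.965). Srcap, the motor that installs H2A.Z, read 8.06, 7.87 and 8.12 against 8.17, 8.20 and 8.30 (0.21 ± 0.08, adjusted p = 0.939). These 2 of the 25 had no overlap between groups, beside 7.95% of all genes higher and 4.24% lower without overlap. Of 20 DNA replication genes, 19 were tested and 0 were called or reached an unadjusted p under 0.05. Rrm1, a ribonucleotide reductase subunit, had the smallest p at −0.14 ± 0.07, and Mki67, a marker of proliferating cells, stood at −0.10 ± 0.07. The median was −0.018.

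H2aj lies on chromosome 6 between Grin2b and Ptpro, which rose in KO by 1.29 and 2.03 log2 (limma adjusted p = 0.0181 and 0.00944). Among the 10 nearest tested genes on each side, these 2 of 20 were called (0.0432% of all genes), and 8 were higher (7.95% of all genes) and 2 lower (4.24%) without overlap between groups, while H2aj itself differed by −0.01 with a 95% interval from −0.18 to 0.17. The neighbours were chosen with earlier results of these data known, so their counts describe this stretch and test nothing. H4f16 lies beside H2aj, but its signal is read only in the probe sets shared by 13 H4 genes.

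**Figure D5:**
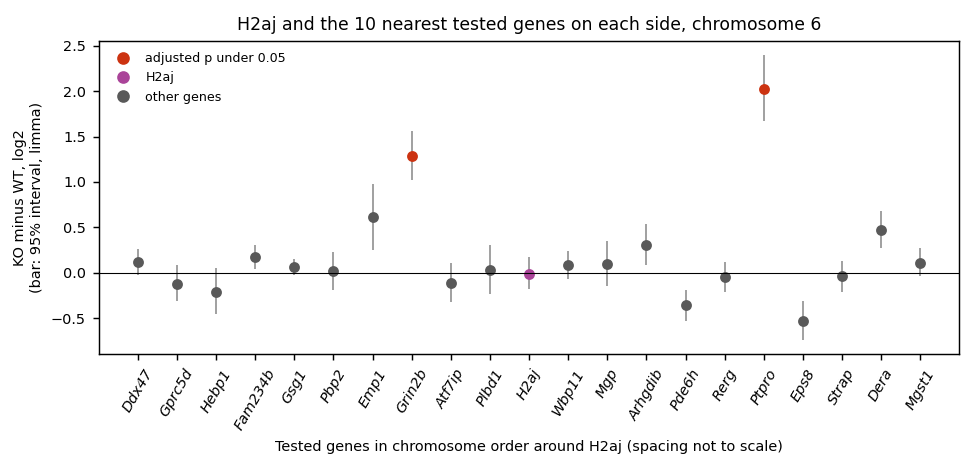
KO minus WT difference in log2 with 95% intervals from limma for H2aj and the 10 nearest tested genes on each side, in chromosome order with spacing not to scale. Ptpro and Grin2b (red, adjusted p under 0.05) stand at 2.03 and 1.29, and H2aj (purple) lies at −0.01.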

How the data were processed

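Whole-testis RNA was amplified in 1 cycle and biotin-labelled for the arrays, according to the labels' protocols. The authors deposited normalized log2 values, a scale read from the values. GCOS 1.4 is named in the submitters' processing notes, while the background correction, probe summary and normalization were not given in the sources used here. A normalization that equalises arrays can hide a shift of all transcripts. Without its 64 control probe sets the table held 45037, of which the upper 60% by mean over all arrays were tested (27022, lowest mean 6.02). In the platform annotation 34945 listed 1 gene, 932 several and 9160 none, and 99.4% of the first matched RefSeq (GRCm38.p6) by gene ID, which gave names, chromosomes and gene order.

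KO was compared with WT with limma 3.58.1 in R 4.3.3 (lmFit, eBayes with intensity trend, two-sided, Benjamini-Hochberg over all tested probe sets, threshold 0.05). The script was tested on simulated data. Named genes were Alkbh1, the 3 brightest genes of each histone group, the H2A, H3 and H1 variants, Hist4h4 and H2afj with their neighbours, members at an unadjusted p under 0.05, and the 2 genes of smallest p per list. Lsm10, Supt16 and further probe sets were named after their values were seen. Members and lists were chosen with earlier results of these data known. The alternatives were the level filter, normalization, moderation, the replicate number as a block and leaving out arrays. Deviations of same-numbered WT and KO arrays correlated at 0.22, −0.02 and 0.10, so the numbers were not taken to pair mice. Figures were drawn with matplotlib 3.10.9.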

Additional observations from a re-analysis of the deposited data

How the results depend on the processing

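No histone probe set passed under any of the 14 alternatives (46 probe sets, 636 values, smallest adjusted p 0.136), and 48 of those values, in 25 probe sets, had the opposite sign. With the replicate number as a block, 6 histone probe sets reached an unadjusted p under 0.05, and 7 probe sets overall were called higher and 2 lower. Calls over all probe sets, 9 higher and 2 lower, became 6 and 1 with the upper 40% by level, 12 and 2 with no level filter, 1 to 10 higher and 1 to 4 lower when single arrays were left out, and 2 higher and 0 lower without WT replicates 1 and 2. The 5 histone probe sets at an unadjusted p under 0.05 became 1 to 7 when single arrays were left out (1 without KO replicate 1, 3 without WT replicate 2) and 2 without WT replicates 1 and 2. The H4 median of −0.159 was −0.062 with no level filter and −0.394 with the upper 40%, and the median of H2B probe sets of several genes went from −0.012 to 0.098 with the upper 40%, since each filter changes which probe sets enter. Leaving out single arrays gave medians from −0.098 to 0.016 for variants of 1 gene, −0.003 to 0.098 for H2A of several genes and −0.036 to 0.086 for H3. Without WT replicates 1 and 2 the medians were 0.006 for H2A of 1 gene, −0.066 for H3 and −0.028 for variants of several genes. Apart from the filters, the cause was not tested. With 3 arrays a group, the 95% interval of the difference in signal lay within 1.19-fold for 20 of the 46.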
